A study of Mus musculus with 8 samples.

Results

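The transcripts of 9 proteins that muscle cells secrete or shed were followed in mouse myotubes: C1qtnf3, Ostn, Car6, Mstn, Gdf15, Fgf21, Il15, Metrnl and Fndc5. Their rows were found in a table of 35275 genes by matching Ensembl gene IDs to mouse symbols, and all 9 were present. They were chosen by measured values of these same libraries, in which C1qtnf3 was lower, and Ostn and Car6 higher, at 24 h than at 12 h, so their levels over time are a description with no test. Tests are given for the treatment, which the choice did not name, and for related genes outside the group. The lists of related genes were also chosen with earlier results of these data known, so the shares that passed are descriptive. Levels are in FPKM, fragments scaled by transcript length and library size. Averaged across the 8 libraries, 7 of the 9 transcripts reached 1 FPKM and entered the tests, while Mstn (0.815 FPKM) and Il15 (0.0206 FPKM) did not.

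Myotubes are the multinucleated fibres that form when muscle progenitors fuse in culture. Here they were grown from primary muscle progenitors, the myogenic progenitor cells (MPCs) of strain C57BL6/J, differentiated in medium with horse serum. For 12 h or 24 h they received extracellular vesicles (EVs, small membrane particles released by cells) from MPCs, or EVs obtained from growth medium as the control. These 4 groups are called control 12 h, MPC EV 12 h, control 24 h and MPC EV 24 h, with 2 libraries each. Every group received a vesicle preparation, so a gain with MPC EVs and a loss with the control preparation cannot be told apart. The study's question was which myotube transcripts respond to MPC EVs. The sources used here give neither the EV dose nor the age and sex of the mice, and do not say whether both libraries of a group were separate cultures. The p-values then measure the spread between libraries alone, and that spread may be technical.

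The libraries held 16324184 to 20187736 fragments. Partners within a group correlated at 0.992 to 0.996 across genes on the log2 scale, except in control 12 h, where the correlation was 0.947. In control 12 h replicate 2, mitochondrial transcripts took 1.56% of the summed FPKM, against 2.09% to 4.81% in the other libraries, and the values without it are given for the results that it changes. All 10 myotube markers (among them Myog, Myh3, Acta1 and Ckm) had a mean of at least 1 FPKM. Their sum was 16550 to 19130 FPKM in control and 17950 to 18870 with MPC EVs at 12 h, then 12680 to 12960 in control and 15360 to 17070 with MPC EVs at 24 h. Of the 6 muscle progenitor markers, 5 reached a mean of 1 FPKM. The sum of all 6 was 181 to 189, 207 to 222, 117 to 126 and 155 to 164 FPKM in the same order of groups. None of the adipocyte, endothelial and macrophage markers reached that mean. Of the fibroblast markers 2 of 7 did. The sum of all 7 was lower with MPC EVs, at 19.2 to 22.2 FPKM against 26.25 to 27.5 in control at 12 h. At 24 h it was 25.7 to 26.3 against 31.5 to 33.5 FPKM. At a limma adjusted p under 0.05, Col1a1 was lower with MPC EVs at 12 h and over both times. Neither of the 2 tested fibroblast markers passed at 24 h. Of the pericyte and smooth muscle markers 2 of 5 did. The sum of all 5 was 5.35 to 5.47 FPKM in control and 7.41 to 7.64 with MPC EVs at 12 h, and 5.11 to 5.22 and 5.43 to 5.85 FPKM at 24 h. In such bulk RNA, fewer cells of a type and less of its RNA per cell cannot be told apart.

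Skeletal muscle releases peptides and proteins, often called myokines, that act on the muscle itself or on distant organs such as liver, fat and brain. Their transcripts differ in how they are controlled: some follow the maturation of the fibre, some follow contraction and energy use, and some belong to the integrated stress response, in which the transcription factors ATF4 and CHOP raise their targets when protein synthesis or mitochondria are disturbed. A transcript level does not give the amount secreted, since processing and release are further steps.

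The stretch of 250 bases before the start of transcription is shown for the 4 transcripts on which the results turn: C1qtnf3 and Car6, which lie at opposite ends over time, Fndc5, which responded to treatment at both times, and Fgf21, the most abundant of the 9. The sequences come from RefSeq on GRCm38.p6, are written 5′ to 3′ on the strand of the gene, and were available for 7 of the 9 genes. Capitals in the C1qtnf3, Car6 and Fndc5 lines mark the E-box, CANNTG, the motif read by MyoD and other helix-loop-helix factors, and capitals in the Fgf21 line mark the amino acid response element, TGATGNAA, read by ATF4 with its partners. Both strands were searched, and no capital stretch overlaps another motif searched.
C1qtnf3, chr15:10952082-10952331, plus strand: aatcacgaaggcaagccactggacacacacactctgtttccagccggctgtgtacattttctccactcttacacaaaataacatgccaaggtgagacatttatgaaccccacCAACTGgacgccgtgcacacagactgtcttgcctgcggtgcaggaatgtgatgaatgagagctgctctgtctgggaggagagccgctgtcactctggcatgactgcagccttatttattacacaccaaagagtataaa
Car6, chr4:150201136-150201385, minus strand: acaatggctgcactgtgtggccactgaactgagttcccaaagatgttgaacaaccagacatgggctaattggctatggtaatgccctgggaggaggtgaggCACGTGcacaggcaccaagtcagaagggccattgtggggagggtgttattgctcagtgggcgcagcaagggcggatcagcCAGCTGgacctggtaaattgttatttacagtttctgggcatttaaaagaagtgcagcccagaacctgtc
Fndc5, chr4:129136749-129136998, plus strand: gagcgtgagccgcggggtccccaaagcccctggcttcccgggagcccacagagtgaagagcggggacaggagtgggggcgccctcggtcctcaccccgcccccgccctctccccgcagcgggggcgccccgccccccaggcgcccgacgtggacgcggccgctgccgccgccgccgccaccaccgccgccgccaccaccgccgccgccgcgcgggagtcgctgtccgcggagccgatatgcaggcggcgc
Fgf21, chr7:45615491-45615740, minus strand: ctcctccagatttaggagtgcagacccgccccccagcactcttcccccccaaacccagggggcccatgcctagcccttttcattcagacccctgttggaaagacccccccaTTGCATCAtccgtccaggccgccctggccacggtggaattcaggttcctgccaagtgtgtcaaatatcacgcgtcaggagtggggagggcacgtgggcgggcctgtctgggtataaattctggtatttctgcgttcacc

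An E-box lies in 66.2% of the 32851 promoters of the same length, so its presence sets no gene apart. The C1qtnf3 stretch holds 1, CAACTG, which ends 132 bases before the start. The Car6 stretch holds 2, CACGTG and CAGCTG, which end 143 and 63 bases before it. The RefSeq start of Car6 lies 197 bases inside the gene span that the annotation gives, so both of its E-boxes fall within that span, while the starts of the other 3 genes shown coincide with the edge of theirs. The Fndc5 stretch holds no E-box and is 80.8% G and C, where the median promoter has 52.4%. The amino acid response element is rarer, in 3.45% of promoters. It lies in the Fgf21 stretch on the opposite strand, as TTGCATCA, and ends 131 bases before the start. None of the other 6 genes with a sequence holds it in this window, Gdf15 included. These are matches of letters only.

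C1qtnf3 was lower at 24 h than at 12 h with either preparation, and Ostn and Car6 were higher. C1qtnf3 (ENSMUSG00000058914, chromosome 15, 10952332 to 10980150 in GRCm38) encodes CTRP3, a secreted relative of adiponectin with a collagen-like stretch and a C1q-like domain. In control myotubes it stood at 178 and 184 FPKM at 12 h and at 51.8 and 52.0 FPKM at 24 h. With MPC EVs it stood at 220.3 and 203 FPKM at 12 h and at 55.0 and 56.1 FPKM at 24 h. Each 12 h library lies above each 24 h library, and partners are close. The 12 h mean was 3.49 times the 24 h mean in control and 3.81 times in MPC EV, which is a difference of -1.79 and -1.92 on the log2(FPKM + 0.5) scale. These values rest on 2101 to 8923 fragments per library. Among all genes of a library, C1qtnf3 ranked between 264 and 373 at 12 h and between 1237 and 1353 at 24 h.

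The protein is also known as cartonectin, after cartilage. The summed level of 5 cartilage and tendon markers was lower at 24 h as well, 95.4 to 95.5 FPKM in control and 106.7 to 116.6 with MPC EVs at 12 h, against 32.25 to 33.9 in control and 36.5 to 43.0 with MPC EVs at 24 h. Scx, a transcription factor of tendon at 25.2 to 110.2 FPKM, carried this sum and fell with time with either preparation (log2 difference -1.72 in control and -1.71 in MPC EV, limma adjusted p = 0.000493 and 0.00081). Sox9, at 5.72 to 9.09 FPKM, made up nearly all of the rest and did not pass with time (adjusted p = 0.869 and 0.725). The markers that define cartilage and tendon matrix were near 0: Acan and Col2a1 reached at most 0.0666 and 0.109 FPKM, and Tnmd at most 0.123 FPKM. Over all tested genes, 10.3% passed as lower with time in control and 5.40% in MPC EV. Of the 10 myotube markers, 7 fell with time in control and 3 in MPC EV, and none rose. Those that fell numbered 3 without control 24 h replicate 1, 4 without its replicate 2 and 10 without control 12 h replicate 1 in control, and in MPC EV 1 or 2 without an MPC EV library and 6 without either control 12 h library. The progenitor markers did not move together: Cdh15, Sdc4 and Vcam1 fell with time in control, whereas Myf5, a factor of committed progenitors, rose from 6.44 ± 1.48 to 14.85 ± 0.286 FPKM (limma adjusted p = 0.00629, and 0.0539 or 0.0546 without either control 24 h library). Pax7, the factor of satellite cells, was at 4.29 to 6.45 FPKM at 12 h and 5.36 to 7.56 FPKM at 24 h and did not pass. The part of these cell types in the C1qtnf3 values was not tested.

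Ostn (ENSMUSG00000052276, chromosome 16, 27307489 to 27351212) encodes osteocrin, also called musclin, a muscle and bone peptide that resembles natriuretic peptides and binds their clearance receptor. It was near the filter at 12 h, with 1.80 and 1.77 FPKM in control and 2.47 and 2.26 FPKM in MPC EV. At 24 h it stood at 12.9 and 16.0 FPKM in control and at 12.8 and 12.2 FPKM in MPC EV. All 24 h libraries lie above all 12 h libraries, and the 24 h means were 8.10 times the 12 h means in control and 5.26 times in MPC EV. The log2 differences were 2.70 and 2.18. At 12 h the values rest on 48 to 61 fragments, and at 24 h on 297 to 459. The libraries do not record strand, and on the opposite strand within the gene the annotation holds a pseudogene, at 0 to 0.128 FPKM, and the antisense transcript Gm32312, which was not analysed here. Where they overlap, fragments of that transcript and of Ostn cannot be told apart.

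Car6 (ENSMUSG00000028972, chromosome 4, 150187015 to 150201332) encodes the secreted carbonic anhydrase, known from saliva and milk, which interconverts carbon dioxide and bicarbonate. At 12 h it stood at 2.15 and 3.15 FPKM in control and at 1.81 and 2.12 FPKM with MPC EVs. At 24 h it reached 17.1 and 17.6 FPKM in control and 14.2 and 13.0 FPKM in MPC EV. The 24 h means were 6.56 and 6.91 times the 12 h means, a log2 difference of 2.52 in both. The 12 h groups overlap in no library with the 24 h groups, while within 12 h the lower control library and the higher MPC EV library nearly meet. Without control 12 h replicate 2, the higher of its pair, the difference in control would be 2.76.

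The remaining factors took other courses. Fndc5 (ENSMUSG00000001334, chromosome 4, 129136999 to 129144593), the membrane protein from which irisin is cut, followed C1qtnf3 downward in time, and its treatment response is described further on. Its log2 differences between the times were -1.46 in control and -1.22 in MPC EV, and the 12 h means were 2.84 and 2.36 times the 24 h means. Gdf15 (ENSMUSG00000038508, chromosome 8, 70629393 to 70632456), a stress-induced member of the TGF-beta family that signals to the hindbrain, was higher at 24 h in every library. It went from 69.9 and 81.6 to 103.5 and 104.0 FPKM in control and from 85.7 and 86.8 to 134.0 and 125.4 FPKM in MPC EV. The log2 differences were 0.46 and 0.59.

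**Figure D1:**
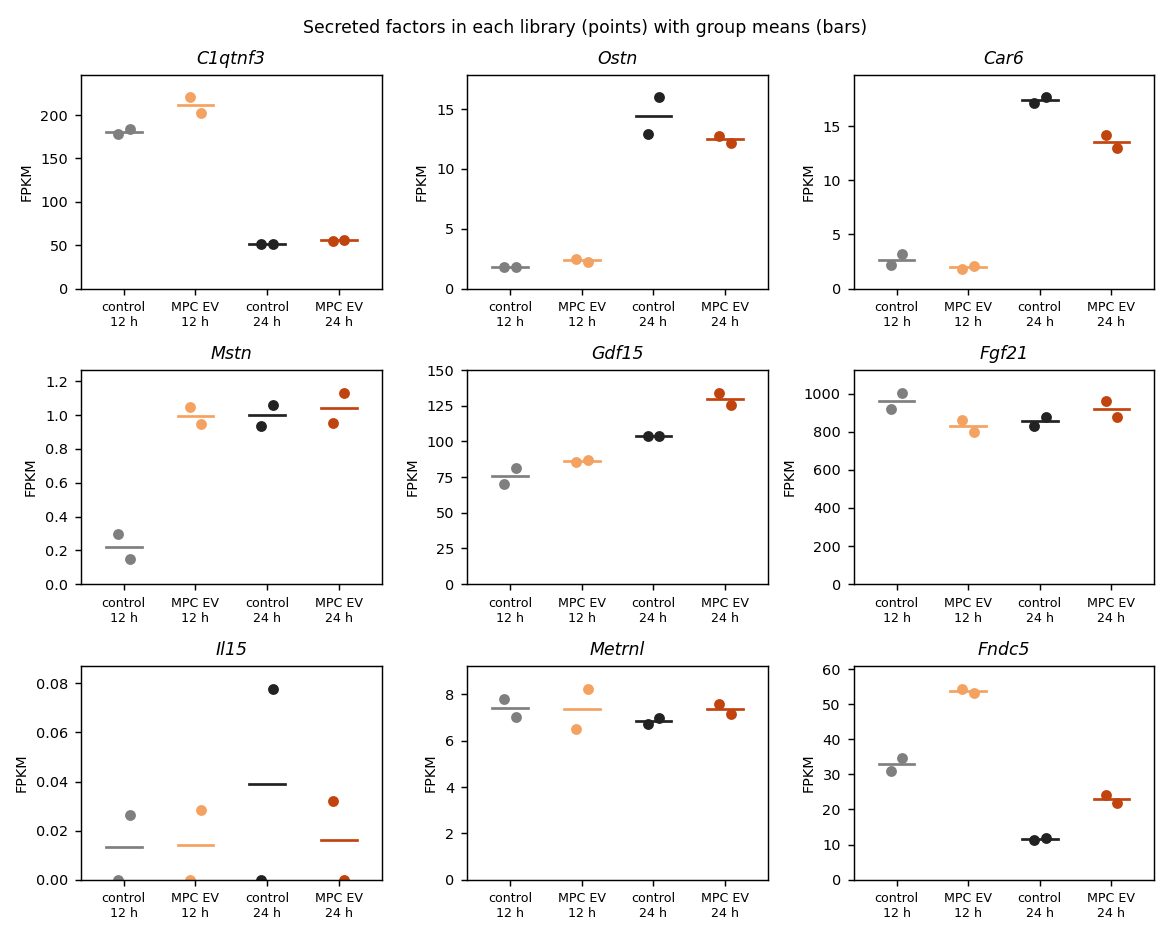
FPKM of the 9 secreted factors in each of the 8 libraries (points) with the mean of each group (bars), each panel with its own axis from 0. C1qtnf3 and Fndc5 sit lower and Ostn, Car6 and Gdf15 higher at 24 h in both treatments, Fndc5 is higher with MPC EV at both times, and Mstn is low in control 12 h alone.

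Fgf21 (ENSMUSG00000030827, chromosome 7, 45613886 to 45615490), a hormone of the fasting and stress response that acts on fat, liver and brain, was the most abundant of the 9. At 12 h its level was 921 and 1004 FPKM in control and 860 and 801 FPKM with MPC EVs, and at 24 h it was 833 and 878 FPKM in control and 961 and 877 FPKM with MPC EVs. It ranked between 62 and 82 among all genes in each library, with 13669 to 18527 fragments. The time difference was small and of opposite sign, -0.17 in control and 0.15 in MPC EV. Metrnl (ENSMUSG00000039208, chromosome 11, 121701544 to 121716306), a meteorin-like factor of muscle and fat known to act on immune cells and fat browning in mice, stayed between 6.51 and 8.25 FPKM in every library. Its time differences were -0.10 in control and 0.00 in MPC EV.

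Mstn (ENSMUSG00000026100, chromosome 1, 53061640 to 53068079) encodes myostatin, the TGF-beta family member that limits muscle growth. It was at 0.296 and 0.149 FPKM in control 12 h, on 15 and 8 fragments. In the other libraries it was at 0.938 to 1.13 FPKM, on 42 to 58 fragments. The control 24 h mean was 4.49 times the control 12 h mean, whereas the means of the MPC EV groups were 0.997 ± 0.0696 FPKM at 12 h and 1.04 ± 0.127 FPKM at 24 h (SD, n = 2). Control 12 h thus stands alone, in both of its libraries, and without its replicate 2 the log2 difference in control would be 0.91 in place of 1.06. Il15 (ENSMUSG00000031712, chromosome 8, 82331632 to 82403222), a cytokine of lymphocytes that muscle is also known to make, had 0 to 3 fragments in any library and at most 0.0779 FPKM. At this depth no difference was detectable, and no fold is given.

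**Figure D2:**
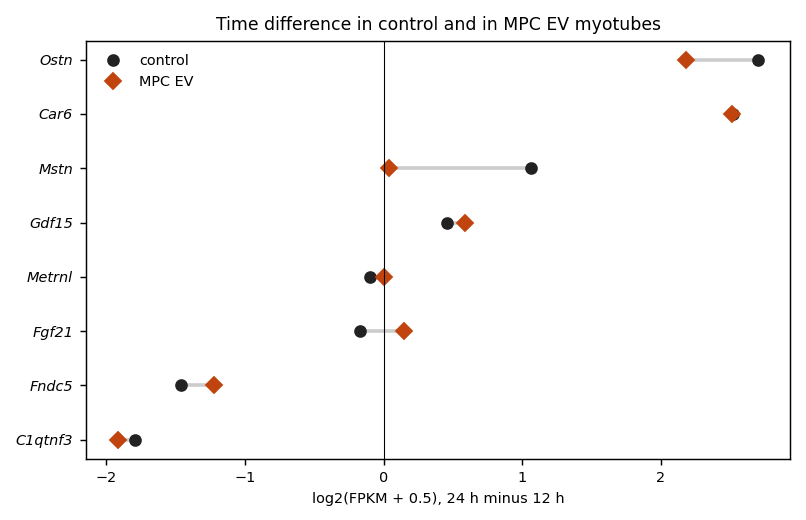
Difference of the group means of log2(FPKM + 0.5) between 24 h and 12 h for each factor, in control (circles) and in MPC EV (diamonds), each from 2 libraries against 2. Ostn and Car6 lie at the right end and C1qtnf3 at the left end in both treatments, and Mstn is the transcript whose marks lie farthest apart, at 1.06 in control and 0.04 in MPC EV. Il15 is left out because it had at most 3 fragments.

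The time differences carry a shift of scale in the MPC EV libraries. The median over all 10981 tested genes was 0.01 in control and 0.10 in MPC EV, and -0.01 in MPC EV once the libraries were scaled to a common median ratio. With that scaling the differences in MPC EV were -2.03 for C1qtnf3, 2.08 for Ostn, 2.42 for Car6, -1.33 for Fndc5, 0.48 for Gdf15, 0.04 for Fgf21 and -0.10 for Metrnl. The directions of C1qtnf3, Ostn, Car6, Fndc5 and Gdf15 are the same under either scaling in both treatments, and that of Metrnl in MPC EV, 0.00 as deposited, is not.

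Fndc5 rose with MPC EVs at both times. At 12 h it stood at 31.0 and 34.7 FPKM in control against 54.5 and 53.3 FPKM with MPC EVs, and at 24 h at 11.4 and 11.8 FPKM against 24.0 and 21.7 FPKM. At either time both treated libraries lie above both controls, on 620 to 2701 fragments. Of the myotube markers, Myh3, an embryonic myosin, and Actn2, a protein of the Z-disc, rose with it, while the other 8 did not pass at 12 h: Myh3 went from 436 ± 38.1 to 1232 ± 2.21 FPKM and Actn2 from 40.53 ± 6.004 to 127 ± 0.133 FPKM at 12 h (SD, n = 2; limma adjusted p = 0.00245 for both). At 24 h Myh3, Actn2 and Ckm were higher with MPC EVs (limma adjusted p = 0.00205, 0.00197 and 0.0268). The call of Ckm was lost when any 24 h library or either MPC EV 12 h library was left out. The part of these markers in the Fndc5 values was not tested. The MPC EV mean of Fndc5 was 1.64 times the control mean at 12 h and 1.97 times at 24 h. By limma with Benjamini-Hochberg adjustment, the log2 difference was 0.71 ± 0.08 (SE) at 12 h with an adjusted p of 0.0063, 0.95 ± 0.08 at 24 h with an adjusted p of 0.00375, and 0.83 ± 0.07 over both times with an adjusted p of 0.0016. Over both times it passed under all 18 alternatives, with adjusted p-values up to 0.0242. At 12 h it passed in 17 of 19 alternatives and missed in a fit to the 4 libraries of that comparison alone (limma adjusted p = 0.0931) and without MPC EV 12 h replicate 1 (0.0542). At 24 h it passed in 15 of 19 and missed, among others, without control 24 h replicate 1 or 2 or MPC EV 24 h replicate 1, at limma adjusted p-values of 0.0564, 0.0551 and 0.0518.

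Of the 7 factors tested, 2 passed at 12 h, Fndc5 and C1qtnf3, and both were higher with MPC EVs. Over all tested genes 18.6% passed at 12 h, with 4.36% higher and 14.3% lower. At 24 h and over both times Fndc5 alone passed among the 7, and it was higher, where 3.57% and 8.54% of all tested genes passed. Those genes were higher in 2.61% and lower in 0.956% of all tested at 24 h, and higher in 4.20% and lower in 4.34% over both times. At an unadjusted p under 0.05, limma put 3 of the 7 higher and 1 lower at 12 h, 2 higher at 24 h, and 3 higher and 1 lower over both times. With control 12 h replicate 2 left out, the number that passed was 3 at 12 h, 2 at 24 h and 2 over both times. The median log2 difference of the 7 was 0.19 at 12 h, 0.10 at 24 h and 0.06 over both times, and that of all tested genes -0.12, -0.03 and -0.06.

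**Figure D3:**
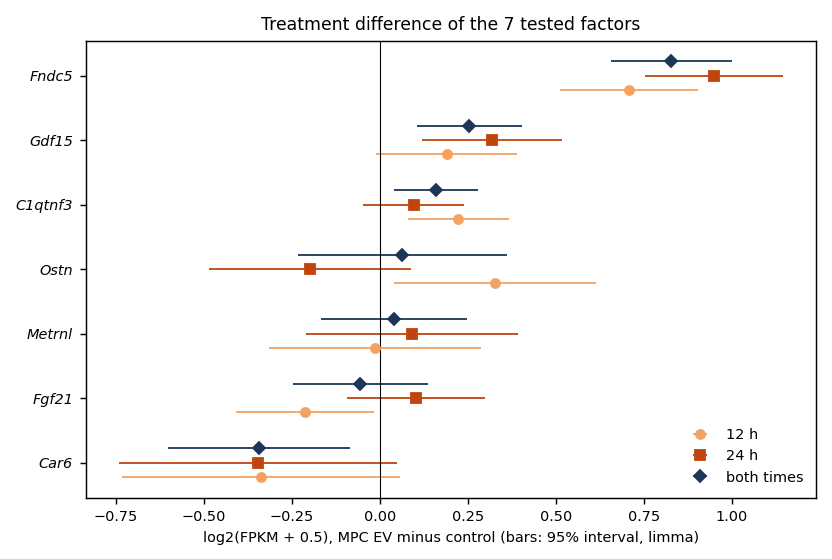
Difference of log2(FPKM + 0.5) between MPC EV and control for the 7 tested factors at 12 h (circles), at 24 h (squares) and over both times (diamonds), with 95% intervals from limma. Fndc5 is the factor whose 3 intervals lie farthest to the right, between 0.51 and 1.15, and the intervals of Metrnl include 0 in all 3 comparisons.

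At 12 h the scale again matters for small differences. The median of all tested genes there was -0.12 as deposited and 0.01 after median-ratio scaling, and the calls over all genes went from 479 higher and 1566 lower to 736 higher and 548 lower, or 506 and 747 after quantile normalization. Over both times they went from 461 higher and 477 lower to 679 and 356 after median-ratio scaling. In MPC EV, the calls between 24 h and 12 h went from 1420 higher and 593 lower to 816 and 839, or 848 and 674 after quantile normalization. Under median-ratio scaling the 12 h treatment differences of the factors were 0.84 for Fndc5, 0.44 for Ostn, 0.36 for C1qtnf3, 0.33 for Gdf15, 0.12 for Metrnl, -0.07 for Fgf21 and -0.23 for Car6.

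C1qtnf3 was 1.17 times its control at 12 h, a log2 difference of 0.22 ± 0.06 (SE) with a limma adjusted p of 0.048. This call was lost in 12 of 19 alternatives, whose adjusted p-values ran from 0.00614 to 0.234. It was lost without MPC EV 12 h replicate 1 (0.192) or 2 (0.0893) and without each 24 h library (0.0969 to 0.106), and it held at 0.0443 without control 12 h replicate 2. At 24 h the difference was 0.10, with a 95% interval of -0.05 to 0.24, and did not pass (limma adjusted p = 0.599).

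Gdf15 came close to the threshold and depended on the scale and on the control 12 h libraries. Its MPC EV mean was 1.14 times the control mean at 12 h and 1.25 times at 24 h, and the groups do not overlap at either time. The log2 differences were 0.19 ± 0.08 (SE) at 12 h, 0.32 ± 0.08 at 24 h and 0.25 ± 0.06 over both times, with limma adjusted p-values of 0.145, 0.118 and 0.0513. With median-ratio scaling the limma adjusted p was 0.0407 at 12 h, 0.0656 at 24 h and 0.00804 over both times. With quantile normalization it was 0.0398, 0.0562 and 0.00832 in the same order. Control 12 h replicate 2 was the higher of its pair, at 81.6 FPKM. Without it the log2 difference was 0.30 at 12 h and 0.31 over both times. The 24 h difference uses no 12 h library and stayed at 0.32. Its SE went from 0.08 to 0.05, because the 4 groups share 1 estimate of spread. Leaving out either library of that pair lowered the 24 h adjusted p with no change in the 24 h values of Gdf15.

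Car6 was lower with MPC EVs by values that did not pass. The mean was 0.742 times control at 12 h and 0.781 times at 24 h, and at each time the treated libraries lie below the controls. The log2 difference over both times was -0.34 ± 0.11 (SE) with a limma adjusted p of 0.108 and a 95% interval of -0.60 to -0.08. Leaving out control 12 h replicate 1, the 12 h difference passed at a limma adjusted p of 0.00572, and leaving out replicate 2 it was -0.11 with an adjusted p of 0.574.

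Ostn was 1.33 times control at 12 h and 0.862 times control at 24 h. The log2 differences were 0.33, with a 95% interval of 0.04 to 0.61 and a limma adjusted p of 0.0986 (0.32 and 0.161 without control 12 h replicate 2), and -0.20, with an interval of -0.49 to 0.09 and an adjusted p of 0.580. Fgf21 differed by -0.21 at 12 h, with an interval of -0.41 to -0.02 and a limma adjusted p of 0.111, and by 0.10 at 24 h, with an interval of -0.09 to 0.30. The 12 h difference of Fgf21 passed when control 12 h replicate 1 was left out, at a limma adjusted p of 0.0293, and was -0.15 with an adjusted p of 0.258 when replicate 2 was. Metrnl differed by -0.01 at 12 h, with an interval of -0.31 to 0.29, and by 0.09 at 24 h, with an interval of -0.21 to 0.39. These intervals, not the missed thresholds, bound what the libraries allow.

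Mstn fell under the filter and has no main test. With the filter lowered to a mean of 0.1 FPKM, the 12 h difference was 1.06 ± 0.16 (SE) with a limma adjusted p of 0.0132, and it was 0.0226 with no filter. At 24 h the difference was 0.04 with a limma adjusted p of 0.971. The 12 h value rests on the low level in both control 12 h libraries, which also set the time difference of Mstn in control, so the 2 values share their controls. The same holds for every factor and gene below that differs both with treatment at 12 h and with time in control.

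Related genes outside the group were counted by list, 128 genes in all, of which 72 were tested. Since the lists were chosen with earlier results of these data known, their shares beside those of all genes are a description. Between 24 h and 12 h, 9 of the 72 were higher and 14 lower in control, and 11 were higher and 3 lower in MPC EV, which is 31.9% and 19.4%. Over all tested genes 17.8% passed in control, 7.54% as higher and 10.3% as lower, and 18.3% in MPC EV, 12.9% as higher and 5.40% as lower. With MPC EVs, 6 were higher and 12 lower at 12 h, 4 and 2 at 24 h, and 5 and 7 over both times. Leaving out each library in turn, the 18 called at 12 h became 6 without MPC EV 12 h replicate 1 and 42 without control 12 h replicate 1, and the 6 called at 24 h became 0 without control 24 h replicate 1 and 14 without either control 12 h library. The 12 called over both times became 8 to 14. Their number with a time difference was 26 in control and 34 in MPC EV without control 12 h replicate 2. Leaving out each library in turn gave 9 to 42 in control, lowest without control 24 h replicate 2 and highest without control 12 h replicate 1, and 5 to 34 in MPC EV, lowest without MPC EV 12 h replicate 2 or either MPC EV 24 h library. Each named call below passed without each library in turn unless stated otherwise.

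Among 11 tested TGF-beta family ligands and processing enzymes, the relatives of Mstn and Gdf15, 1 was higher and 5 were lower with MPC EVs at 12 h, and 6 were lower at 24 h than at 12 h in control. The median log2 difference was -0.24 with treatment at 12 h, where it was -0.12 over all tested genes, and -0.48 with time in control, where it was 0.01. The gene that was higher was Tgfb3, a TGF-beta of developing and injured tissue, at 40.6 ± 3.51 FPKM in control 12 h and 71.5 ± 1.88 in MPC EV 12 h (SD, n = 2). Over both times it rose by 0.90 ± 0.06 on the log2 scale (limma adjusted p = 0.000584), and this call held in all 18 alternatives. Bmp2, a bone morphogenetic protein, stood at 3.96 and 3.85 FPKM in control 12 h and at 0.345 to 0.951 FPKM in the other 6 libraries. It was lower by -1.69 ± 0.16 with MPC EVs at 12 h (limma adjusted p = 0.00383) and by -2.12 ± 0.16 with time in control (adjusted p = 0.000761). Leaving out each library in turn left 2 to 9 of the 11 called at 12 h, lowest without MPC EV 12 h replicate 1 and highest without control 12 h replicate 1, and 2 to 8 with time in control.

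Myostatin signals through activin receptors and SMAD proteins and is held back by follistatin and its relatives. Fst, follistatin itself, was at 30.7 and 32.8 FPKM in control and 27.0 and 30.1 FPKM with MPC EVs at 12 h, then 6.91 and 8.10 FPKM in control and 9.46 and 10.1 FPKM with MPC EVs at 24 h. It fell with time by 2.01 on the log2 scale in control and by 1.49 in MPC EV (limma adjusted p = 0.000339 and 0.00103). Smad3, which carries the signal to the nucleus, fell with time by 0.91 and 1.05 (limma adjusted p = 0.00164 and 0.00169). Smad7, the feedback inhibitor of the pathway, was at 21.8 ± 0.924 FPKM in control 12 h and 11.8 ± 1.47 in MPC EV 12 h, and fell with MPC EVs over both times by 0.67 ± 0.10 (limma adjusted p = 0.00903). Fstl1, a secreted follistatin-like glycoprotein, was at 22.5 ± 1.26 and 12.6 ± 0.0891 FPKM at 12 h and at 30.1 ± 0.416 and 16.2 ± 0.0175 FPKM at 24 h, and fell with MPC EVs over both times by 0.84 ± 0.05 (limma adjusted p = 0.000279). With time Fstl1 rose, opposite to Fst, by 0.41 in control and 0.36 in MPC EV (limma adjusted p = 0.00898 and 0.0152). These time calls were lost without 2 and 4 of the libraries. Of 7 tested receptors and SMADs no other gene passed in any of the 5 comparisons, though their number at 12 h depended on control 12 h replicate 1. Of 4 tested genes listed with the inhibitors, none but Fst and Fstl1 passed. Whether Fstl1 holds myostatin back was not tested.

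The activin receptor Acvr2a and the TGF-beta receptor Tgfbr1 were at 1.88 and 1.27 FPKM in control 12 h replicate 2 and at 3.49 to 8.05 FPKM in the other libraries, so their control 12 h means are not read here. Acvr2b, the main myostatin receptor, was at 0.154 to 1.09 FPKM and was not tested.

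The receptors of the natriuretic peptides, which Ostn resembles, were present in part. Npr2, which makes cyclic GMP, was steady at 12.3 to 15.3 FPKM, and Npr1 had at most 2 fragments in any library. Npr3, the clearance receptor that osteocrin binds, was at 0.979 and 0.400 FPKM in control 12 h and at 1.49 to 1.89 FPKM in the other 6 libraries. Its 12 h treatment difference was 0.90 ± 0.24 with a limma adjusted p of 0.0488, and without control 12 h replicate 2 it was 0.54 with an adjusted p of 0.0773. The call was lost without each of 7 libraries, all but control 12 h replicate 1. The natriuretic peptide Nppb was at 0.390 to 1.10 FPKM, and Nppa and Nppc had at most 4 fragments.

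For Fgf21 and Gdf15 the co-receptors that define a responding cell were at or near 0. Klb, the beta-klotho that FGF21 needs, had at most 3 fragments in any library, and Gfral, the GDF15 receptor, had 0 in all 8. Fgfr1, the kinase that pairs with Klb, was at 11.3 to 15.4 FPKM. It was lower with MPC EVs over both times by -0.27 ± 0.06 (limma adjusted p = 0.0406), a call that was lost in 12 of 18 alternatives and without each library except control 12 h replicate 2. Fgfr3 was higher with MPC EVs, by 0.54 ± 0.11 at 12 h and 0.42 ± 0.09 over both times (limma adjusted p = 0.02425 and 0.03057). Each of these calls was lost without 6 of the 8 libraries in turn. Fgfr3 was at 2.01 ± 0.0646 FPKM in control 12 h and 3.56 ± 0.282 in control 24 h. It rose with time in control by 0.69 ± 0.11 (limma adjusted p = 0.00858). Leaving out control 24 h replicate 2 ended this call, at a limma adjusted p of 0.0811.

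The IL-15 receptor chains were low as well. Il15ra was at 0.106 to 0.377 FPKM, Il2rb at 0 to 0.206 and Il2rg at 0 to 0.965, and none was tested.

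**Figure D4:**
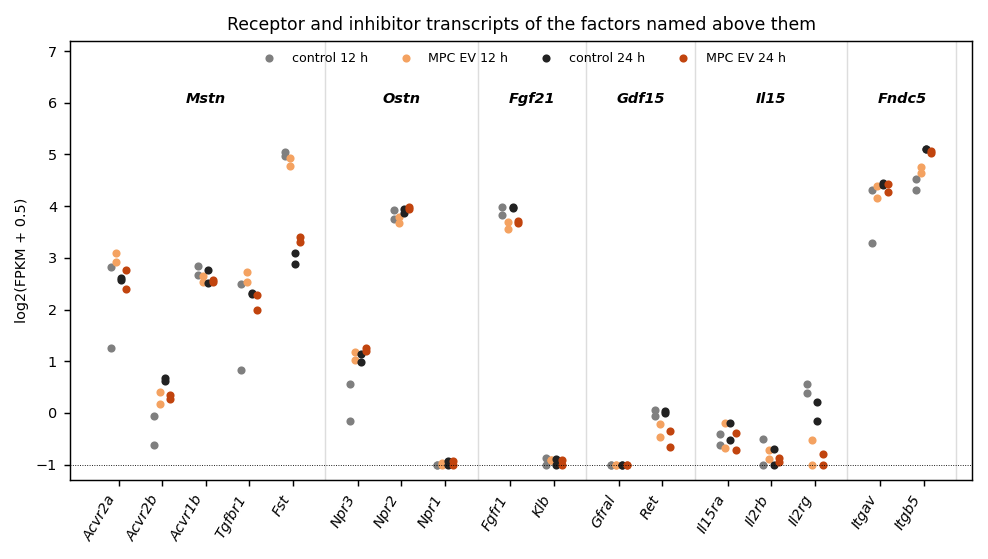
log2(FPKM + 0.5) of receptors and inhibitors in each library, grouped under the factor they are listed with, with colours for the 4 groups and a dotted line at 0 FPKM. Npr1 and Npr2 stand under Ostn as receptors of the natriuretic peptides that it resembles. Fst is lower in all 24 h libraries, Npr1, Klb and Gfral lie on or near the line, and control 12 h replicate 2 is the low grey point of Acvr2a, Tgfbr1, Npr3 and Itgav.

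Other FNDC genes and the regulator of Fndc5 were examined beside it. PGC-1alpha, from Ppargc1a, is known to raise Fndc5 in mouse muscle. At 12 h it was at 0.448 ± 0.126 FPKM in control and 1.41 ± 0.213 with MPC EVs, and at 24 h at 0.961 ± 0.0714 and 1.79 ± 0.0971 FPKM (SD, n = 2). Over both times it rose with MPC EVs by 0.83 ± 0.13 on the log2 scale (limma adjusted p = 0.0105). With time, Ppargc1a and Fndc5 went opposite ways. In control Ppargc1a rose by 0.63 ± 0.16 (limma adjusted p = 0.0438), a call lost without 7 of the libraries, while Fndc5 differed by -1.46. In MPC EV the time differences were 0.26, which did not pass, and -1.22. The part of Ppargc1a in the Fndc5 values was not tested. Fndc1 rose with MPC EVs over both times by 1.03 ± 0.09 (adjusted p = 0.00163), from 3.28 ± 0.462 to 7.59 ± 0.901 FPKM at 12 h. Itgb5, a chain of the integrin that is described as an irisin receptor, was at 20.9 ± 2.36 FPKM in control 12 h and 33.9 ± 0.105 in control 24 h, and rose with time in control by 0.69 ± 0.09 (adjusted p = 0.00464). Its partner Itgav was at 9.21 FPKM in control 12 h replicate 2 and at 17.4 to 21.4 FPKM elsewhere. Metrn, the relative of Metrnl, was at 0.509 to 2.11 FPKM and did not pass. Of the 8 genes on this list, all tested, 2 were higher at 12 h, 1 at 24 h and 2 over both times with MPC EVs, and the 12 h median was 0.38. Leaving out each library in turn gave 1 to 4 at 12 h, lowest without either MPC EV 12 h library and highest without control 12 h replicate 1.

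Fgf21 and Gdf15 are textbook targets of the stress factors ATF4 and CHOP, and 15 other targets or members of that response were tested. With time, 4 were higher and 1 lower in control and 5 were higher in MPC EV, with medians of 0.10 and 0.25. Ppp1r15a, the phosphatase subunit that restarts translation, rose from 140 ± 29.1 to 346 ± 1.45 FPKM in control and from 124 ± 6.16 to 331 ± 24.6 FPKM in MPC EV (limma adjusted p = 0.00223 and 0.00242). Ddit3, which encodes CHOP, rose from 155 ± 21.0 to 277 ± 1.31 FPKM and from 137 ± 5.32 to 272 ± 16.7 FPKM (adjusted p = 0.00331 and 0.00265). Both passed in all 19 alternatives in either treatment. Atf4 itself was at 486 to 660 FPKM and did not pass in any of the 5 comparisons. With MPC EVs 1 of the 15 passed at 12 h, Nupr1, which was lower by -0.57 ± 0.08 (adjusted p = 0.0118), and this call was lost without MPC EV 12 h replicate 1 (0.0700) or 2 (0.0745). None passed at 24 h by limma or by limma-voom, with 1 at an unadjusted p under 0.05. Leaving out control 12 h replicate 1 raised the number at 12 h to 11, and leaving out replicate 2 raised it to 3. The numbers with time ran from 2 without control 24 h replicate 2 to 9 without control 12 h replicate 1 in control, and from 2 without any MPC EV library to 11 without control 12 h replicate 1 in MPC EV.

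Relatives of C1qtnf3 and Car6 were few. Of 12 genes of the C1q/TNF family and the adiponectin receptors, 5 were tested, and none passed in any of the 5 comparisons by limma or limma-voom, with 0 to 2 at an unadjusted p under 0.05. C1qtnf6 was at 1.63 to 2.77 FPKM, C1qtnf12 at 5.97 to 7.79 and Erfe, the erythroferrone that controls iron, at 0.716 to 1.81. Leaving out control 12 h replicate 2, 1 passed with treatment at 12 h and 1 with time in either treatment, and leaving out replicate 1, 2 passed with treatment at 12 h. Of 15 other carbonic anhydrases 2 were tested, and neither passed between 24 h and 12 h, with 0 at an unadjusted p under 0.05 and 0 by limma-voom. Car7, the highest of those under the filter, was not tested. It stood at 0.337 to 0.393 FPKM at 12 h and at 0.757 to 1.49 FPKM at 24 h, on 13 to 57 fragments. Car13, a cytosolic form, fell with MPC EVs over both times by 0.71 ± 0.11 (limma adjusted p = 0.00872), from 4.87 ± 0.00818 to 2.62 ± 0.653 FPKM at 12 h and from 5.56 ± 0.0599 to 3.41 ± 0.144 FPKM at 24 h. Car3, the form of slow muscle, was at 6.90 and 6.21 FPKM in control 24 h and at 1.95 and 3.36 FPKM in MPC EV 24 h, and its 24 h call (limma adjusted p = 0.0448) was lost without 5 of the 8 libraries.

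Of 15 other tested secreted factors of muscle, 1 was higher and 5 lower with time in control, and 3 were higher in MPC EV. Those numbers ran from 1 without control 24 h replicate 2 to 10 without control 12 h replicate 1 in control, and from 1 to 9 in MPC EV, lowest without MPC EV 12 h replicate 2 or either MPC EV 24 h library. Vegfb, a growth factor of vessels and lipid uptake, rose with time by 0.55 ± 0.07 in control and 0.86 ± 0.07 in MPC EV (limma adjusted p = 0.00336 and 0.00126). Apln, which encodes the peptide apelin, rose with MPC EVs over both times by 1.38 ± 0.10 (adjusted p = 0.00081), from 1.39 ± 0.222 to 4.09 ± 0.0237 FPKM at 12 h and from 0.733 ± 0.0800 to 2.93 ± 0.270 FPKM at 24 h. The cytokines Ccl2, Lif and Cx3cl1 were lower with MPC EVs at 12 h and with time in control, while Ccl2 was higher with time in MPC EV (log2 difference 1.01, limma adjusted p = 0.0323). Lif, which acts on muscle progenitors, was at 7.36 and 8.68 FPKM in control 12 h and at 3.15 to 4.20 FPKM in the other 6 libraries. Its 12 h call (limma adjusted p = 0.0115) was lost without MPC EV 12 h replicate 1 (0.0742) or 2 (0.0582), and that of Ccl2 likewise at 0.0641 and 0.0524. Cx3cl1 lost its 12 h call without each library except control 12 h replicate 1, and Lif, Cx3cl1 and Ccl2 lost that with time in control without control 24 h replicate 2 (0.0695, 0.0662 and 0.0600). The rise of Ccl2 with time in MPC EV was lost without each of the 4 MPC EV libraries (0.105 to 0.152).

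The genes whose levels ran most alike over the 8 libraries were sought among 9255 tested genes that averaged 2 FPKM or more. Such correlations describe 8 libraries that share 4 groups and carry no test, and for C1qtnf3, Ostn and Car6 they mostly restate the difference between the times. For C1qtnf3 they were Nes, Rhob, St6galnac4, Plekhg5 and Nuak1, with Pearson's r of 0.9948 to 0.9976. Nes, which encodes the intermediate filament nestin of regenerating muscle, went from 423 ± 14.6 to 205 ± 0.216 FPKM in control. For Ostn they were Rcor3, Ppip5k1, Ate1, Dzip1 and Slc38a9, with r of 0.9919 to 0.9961. Their log2 changes with time in control were 0.31 to 1.22, against 2.70 for Ostn. For Car6 they were Cdsn, Ccdc117, Ctsl, Scpep1 and Pim1, with r of 0.9959 to 0.9985. Cdsn, the adhesion protein corneodesmosin, went from 67.7 ± 9.83 to 232 ± 2.78 FPKM in control and from 54.9 ± 5.79 to 187 ± 2.97 FPKM in MPC EV. Ctsl, a lysosomal protease, went from 189 ± 7.15 to 382 ± 2.16 FPKM in control.

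**Figure D5:**
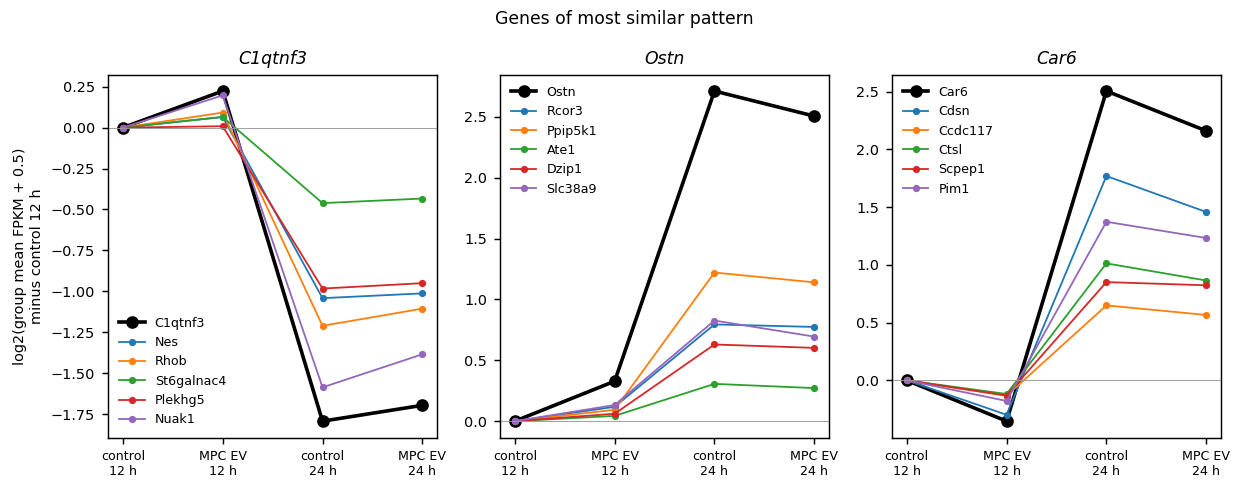
Group means on the log2 scale relative to control 12 h for C1qtnf3, Ostn and Car6 (black) and the 5 genes of most similar pattern to each (colours), each point the mean of 2 libraries. The companions run in the same direction as the factor, with smaller differences between the times than Ostn or Car6 show.

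For Fndc5 the closest were Fam171a2, Gatm and Srpk3, with r of 0.9982, 0.996 and 0.9958. Gatm, an enzyme of creatine synthesis, was at 94.6 ± 0.437 FPKM in control and 134 ± 5.14 with MPC EVs at 12 h, and at 53.5 ± 0.0268 and 76.7 ± 4.16 FPKM at 24 h. For Gdf15 they were Srxn1, which repairs oxidized peroxiredoxins, Ptgr2 and the glucose transporter Slc2a1, with r of 0.9835 to 0.9939. For Fgf21 they were Psmg3, Mesd and Mgme1, with r of 0.9578 to 0.9801, and for Metrnl Prkx, Tmed8 and Bag4, with r of 0.91 to 0.9387. For Fgf21 and Metrnl, which moved little, such likeness follows small differences between libraries.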

How the data were processed

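RNA sequencing of mouse myotubes gave 8 libraries in 4 groups of 2. The authors deposited FPKM values, 1 per gene and library; per the submitters' processing notes the tools were HISAT2 and DESeq2 (listed version 2) with mm10, and the counting tool is not given in the sources used here. Per the labels' protocols the libraries do not record strand and were read in pairs. Of the 35275 rows, 34490 had a symbol, and columns without a sample numbered 0.

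Low values step in whole fragments, which gave each library's depth: 21402 of 21406 genes above 0 (99.98%) came out whole within 0.001 of a fragment. Tests used limma 3.58.1 in R 4.3.3 on log2(FPKM + 0.5), with a variance trend, Benjamini-Hochberg adjustment over all 10981 genes with a mean of 1 FPKM or more, and a threshold of 0.05. Fold changes of low genes are understated on this scale. The 4 groups shared 1 fit and 1 estimate of spread per gene. Leaving out a library therefore also moves the p-values of comparisons that do not use it. The comparison over both times used treatment and time as terms. The steps were tested on simulated data. Alternatives changed the pseudocount, filter, scaling, variance trend, replicate block or libraries used, and limma-voom on the recovered fragments was added after seeing the data.

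The 9 members and all gene lists were chosen with earlier results of these data known. From each list up to 4 genes with the smallest adjusted p in a comparison, and a set of direct receptors and inhibitors, are named; Acvr2a, Tgfbr1, Npr1, Nppa, Nppb, Nppc, Il2rb, Il2rg, Itgav, Atf4, C1qtnf6, C1qtnf12, Erfe and the single marker genes were added after their values were seen.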

Additional observations from a re-analysis of the deposited data

Results flagged for a closer look

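The treatment difference of Ostn had opposite signs at the 2 times. On the log2 scale it was 0.3266 at 12 h, where both MPC EV libraries lay above both controls, and -0.1992 at 24 h, where both lay below. Neither value passed the limma threshold, and the difference between them was not tested because the members were chosen on the time comparison.

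The time difference of Fgf21 also had opposite signs, -0.1694 in control, where both 24 h libraries lay below both 12 h libraries, and 0.1458 in MPC EV, where both lay above. Without control 12 h replicate 2 the value in control was -0.1078. After median-ratio scaling the value in MPC EV was smaller, as given above. The difference between control and MPC EV was likewise not tested.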

How the results depend on the processing

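Fndc5 was higher with MPC EVs in all alternatives and passed in 50 of 56. Of the 7 factors tested at 12 h 2 passed, against 1 without the variance trend, 1 with voom and 0 in a fit to the 4 libraries of the comparison alone, and 0 to 4 when each library was left out, lowest without MPC EV 12 h replicate 1 and highest without control 12 h replicate 1. At 24 h 1 passed, against 3 in the 4-library fit and 0 to 2 when each library was left out. Over both times 1 passed, against 2 after either median-ratio scaling or quantile normalization and 1 to 2 when each library was left out. Of the 72 related genes 23 passed with time in control, against 15 at a mean of at least 5 FPKM, 8 in the 4-library fit and 9 to 42 when each library was left out. In MPC EV 14 passed, against 30 in the 4-library fit and 5 to 34.

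Values near 0 changed sign. Over both times Ostn was -0.0847 with voom and ran from -0.0104 to 0.175 when each library was left out. Fgf21 was 0.0252 with median-ratio scaling and 0.0919 with quantile normalization, and ran from -0.1125 to 0.0016. Metrnl at 12 h was 0.116 with median-ratio scaling and ran from -0.1724 to 0.1474, and over both times it ran from -0.0139 to 0.114. The cause was not tested.

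Replicate numbers share no stated batch. Deviations of same-numbered libraries correlated at -0.012 between control and MPC EV at 12 h, 0.241 at 24 h, -0.271 between the times in control and 0.072 in MPC EV. Between control 12 h and MPC EV 24 h the correlation was -0.613, and between MPC EV 12 h and control 24 h it was 0.058. With the replicate block 1 factor passed at 12 h, 0 at 24 h (Fndc5 had a limma adjusted p of 0.0638) and 1 over both times, and 14 and 9 related genes passed with time in control and in MPC EV.

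Over all genes the calls at 12 h ran from 11 in the 4-library fit to 5671 without control 12 h replicate 1, at 24 h from 0 with the block to 958, over both times from 318 to 1325, with time in control from 480 to 4519 and in MPC EV from 446 to 4176. At 12 h Il15, Mstn, Ostn and Car6 rested on at most 98 fragments in a library.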
